A study of Chlamydomonas reinhardtii with 4 samples.

Results

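The models described here are 295 gene models of the green alga Chlamydomonas reinhardtii whose signal during nitrogen starvation peaked on the 72 h array. A gene model is a predicted transcript of the JGI 3.1 annotation, and each had up to 3 probes, numbered here as slots 1 to 3 as in their names. A model's value was the median over its probes of the log2 ratio of starved RNA over RNA from before starvation, so a value of 1 stands for a 2-fold higher and a value of -1 for a 2-fold lower signal than at 0 h. A model was taken when its 72 h value lay at least 1 above its 48 h value and at least 1 above its 96 h value. Of 8319 models with a probe that cleared the background by the scanner's flags for Cy5 and for Cy3 on every array, 295 met this rule (3.55%). The members were thus chosen by their measured values at 48 h, 72 h and 96 h, so those values are given as a description and no test was made on them.

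Cells of the wild-type strain cc3491 were grown to early stationary phase in TAP, an acetate medium. They were then washed and kept under constant light in the same medium without nitrogen. The 0 h RNA, to which all values refer, came from early stationary phase cultures before starvation. All groups share this strain and carry no transgene or mutation named in the sources used here. On each 2-colour array the green dye (Cy3) marked RNA from 0 h and the red dye (Cy5) marked RNA from 24, 48, 72 or 96 h without nitrogen, with no dye swap. RNA of the biological replicates had been pooled, so each time point was 1 array with no replicate check and the error of a single value is unknown. A lower signal from fewer cells that express a gene and from less RNA per cell cannot be told apart in such bulk RNA.

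C. reinhardtii swims with a pair of flagella. These are built on a microtubule axoneme whose dynein arms drive the beat and whose radial spokes regulate it, and many further flagella-associated proteins (FAPs) are known mainly from having been found in isolated flagella. The same alga makes iron hydrogenases in its chloroplast, which reduce protons with electrons from ferredoxin and are inactivated by oxygen. Flagellar genes are known to be induced together when flagella are regrown.

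Probe sequences are shown for 3 of the models, to show how far the probes of a model were separate measurements. Capitals mark a run of at least 15 bases that a probe shared with another probe of its model. The sequences come from the study's probe table, which was held in part, and covered 90 kept probes of 37 of the 295 models. FAP250, a flagella-associated protein, was measured by 1 kept probe, and model 168639 and model 187732 have no gene symbol in the sources used here. Model 187732 was singled out after its values were seen.

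FAP250 slot 1: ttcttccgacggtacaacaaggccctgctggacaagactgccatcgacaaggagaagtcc

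168639 slot 1: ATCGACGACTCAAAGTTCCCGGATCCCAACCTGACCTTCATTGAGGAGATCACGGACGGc

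168639 slot 2: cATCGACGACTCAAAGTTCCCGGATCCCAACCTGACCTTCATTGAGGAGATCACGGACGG

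187732 slot 1: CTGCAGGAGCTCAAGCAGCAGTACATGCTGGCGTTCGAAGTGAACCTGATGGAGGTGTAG

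187732 slot 2: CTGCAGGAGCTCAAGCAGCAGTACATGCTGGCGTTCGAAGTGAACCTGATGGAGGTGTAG

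187732 slot 3: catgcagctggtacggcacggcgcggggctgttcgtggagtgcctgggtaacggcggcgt

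The slot 1 and slot 2 probes of model 168639 shared 59 bases, and those of model 187732 were the same 60 bases, so each such pair was in effect the same oligonucleotide printed again. Model 168639 read -0.82, -0.68, 1.04 and -0.63 by slot 1 and -0.80, -0.51, 1.09 and -0.54 by slot 2, given here and in the following in the order of the 4 times. For model 187732, slot 1 read -1.75, -1.45, 0.83 and -1.18 and slot 2 read -1.71, -1.24, 1.12 and -1.11. Its slot 3 probe, whose longest run in common with slot 1 was 5 bases, read -0.29, -0.33, -0.42 and -0.20, and did not peak at 72 h. Of 34 members with sequences for 2 or more kept probes, 17 had probes sharing at least 15 bases and 10 had probes sharing at least 50. A pair of probes sharing fewer than 15 bases was found in 29 of the 34, and in 21 of these 29 such a pair peaked with a margin of at least 1 in both probes. The median GC content was 50% for the member probes and 53.3% for all kept probes with a sequence.

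Most of the 295 models were lower than at 0 h on the 24 h, 48 h and 96 h arrays and stood near their 0 h level on the 72 h array. Their median values were -1.08 at 24 h, -1.20 at 48 h, 0.53 at 72 h and -1.15 at 96 h, beside medians over all 8319 models of 0.05, 0.04, 0.05 and 0.08. At 72 h, 238 of the 295 (80.7%) lay within 2-fold of 0 h, 51 (17.3%, beside 8.19% of all models) were at least 2-fold above it and 6 (2.03%, beside 12.8%) were still at least 2-fold below it. Of the 238 models near the 0 h level, 197 stood above 0 and 41 below, and 125 lay within 0.5 of it. The models at least 2-fold above time 0 were thus 51, some of them close to that limit, and this count changed with the processing, as given below. At both 48 h and 96 h, 167 of the 295 were at least 2-fold lower. Of these, 6 were in the raised class, 155 near the 0 h level and 6 in the lowered class.

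**Figure D1:**
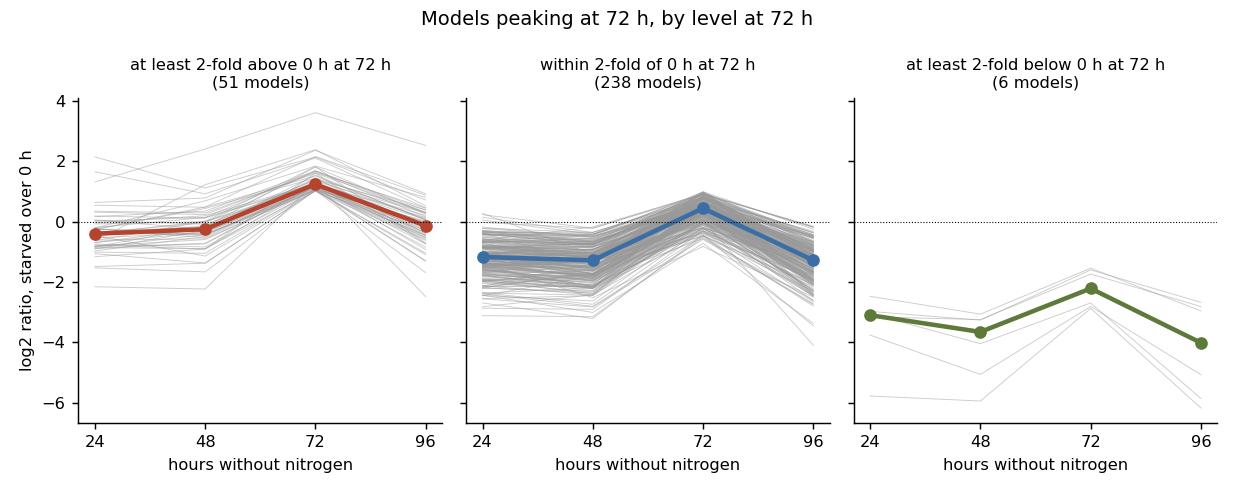
Values of the 295 models by time (x axis, hours without nitrogen) as log2 of starved over 0 h signal (y axis), in 3 panels by their level at 72 h. Grey lines are single models and the coloured line is the median of the panel, which at 72 h stands at 1.24 for the 51 raised models, 0.44 for the 238 models near the 0 h level and -2.21 for the 6 lowered ones.

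The margin, the 72 h value minus the higher of the 48 h and 96 h values, ran from 1.00 to 3.53, with quartiles of 1.25, 1.55 and 1.94. The 48 h and 96 h values, which the rule used, differed by at most 0.5 in 271 of the 295 (91.9%), beside 80.5% of all models. Models 129876, 184735 and 188335 lay just inside the rule, with margins of 1.00, 1.01 and 1.01. Models 195092, 182183 and 153368 lay just outside, with margins of 0.998, 0.996 and 0.996.

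The 24 h array was not used by the rule. At 24 h, 167 of the 295 models (56.6%) were at least 2-fold lower than at 0 h and 3 were at least 2-fold higher, beside 13.2% of all models lower and 7.39% higher. For 240 of the 295 (81.4%), the 24 h value lay within 0.5 of the mean of the 48 h and 96 h values, beside 73.5% of all models. The 72 h value, which the rule favours to be high, was above the 24 h value in 294 models and by at least 1 in 258 (87.5%, beside 7.5% of all models). Model 176918, at 2.15 at 24 h and 2.14 at 72 h, was the exception, and it was singled out after its values were seen. At 48 h, 184 models (62.4%, beside 12.3% of all models) were at least 2-fold lower, and at 96 h 178 were (60.3%, beside 14.3%). At least 2-fold higher were 3 members at 48 h, beside 8.39% of all models, and 1 at 96 h, beside 10.2%. The rule itself bears on these counts.

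Seen from the lowered genes, 656 of all measured models were at least 2-fold lower at 24 h, 48 h and 96 h. Of these, 482 were at least 2-fold lower at 72 h too, 169 were within 2-fold of 0 h at 72 h and 5 were at least 2-fold higher. Members made up 146 of the 656 (22.3%).

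The same shape was counted at the other inner time point and upside down. Only 11 models (0.132%) lay at least 1 above both neighbours at 48 h and 11 (0.132%) lay at least 1 below both. At 72 h, 121 models (1.45%) lay at least 1 below both neighbours, against the 295 above. Over all 8319 models, the SD of the 72 h value minus the mean of 48 h and 96 h was 0.54, and that of the 48 h value minus the mean of 24 h and 72 h was 0.38.

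**Figure D2:**
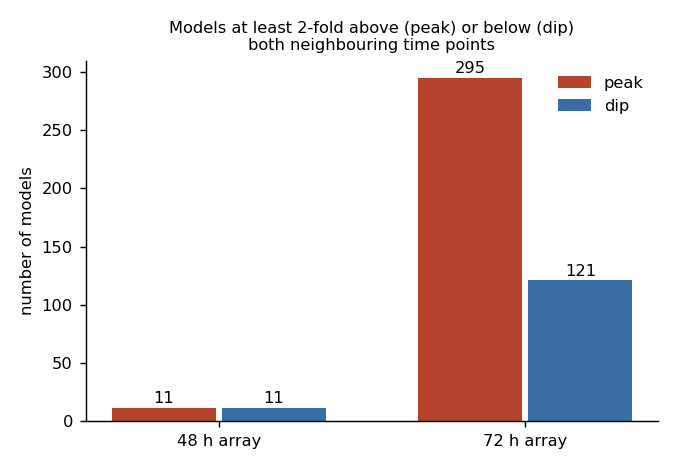
Number of models (y axis) that lay at least 2-fold above (peak) or at least 2-fold below (dip) both neighbouring time points, on the 48 h and the 72 h array (x axis). The 72 h array holds 295 peaks and 121 dips, and the 48 h array 11 of each.

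The 72 h signal lay in the channel of the starved RNA. Within members, the Cy5 signal at 72 h stood a median of 1.73 on the log2 scale above its mean at 48 h and 96 h (quartiles 1.42 and 2.11), beside -0.01 over all models. The Cy3 signal, which held 0 h RNA on every array, differed by a median of 0.04 (quartiles 0.00 and 0.10), beside 0.05 over all models. The Cy5 difference was at least 1 in 291 of the 295. A Cy3 difference of 0.5 or more in either direction was found in 2 members, models 175039 and 154904, which were singled out after their values were seen. Model 175039, measured by 1 probe, had processed Cy5 intensities of 654, 532, 441 and 491 and processed Cy3 intensities of 838, 669, 162 and 640. Its 72 h value of 1.45 thus went with a low 0 h signal on that array and not with a high starved signal.

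**Figure D3:**
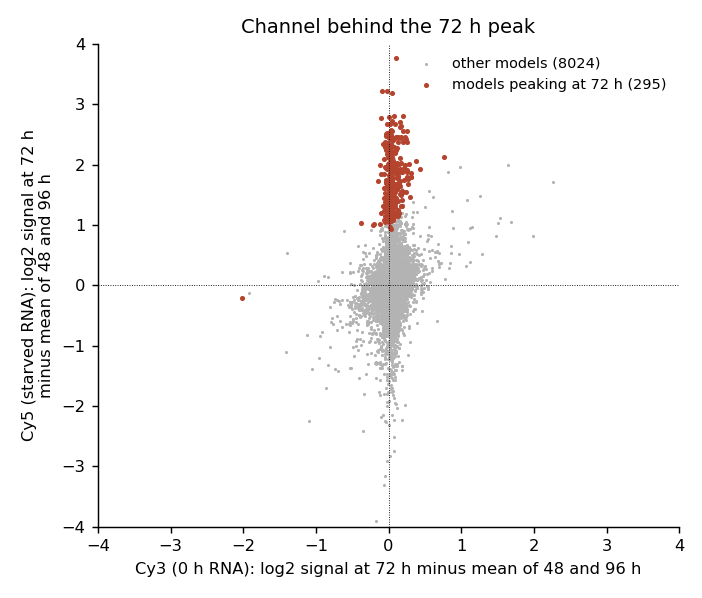
Difference in log2 signal between the 72 h array and the mean of the 48 h and 96 h arrays, for Cy5 (y axis, starved RNA) and Cy3 (x axis, 0 h RNA), with the 295 peaking models in red and all other measured models in grey. The red points lie along the y axis, with a median of 1.73 in Cy5 and 0.04 in Cy3, and the red point at the far left is model 175039.

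Some values of the arrays themselves differed between the earlier and the later times. The control transcripts added at labelling had a median net Cy5 signal of 5785 at 72 h and 4663 at 96 h, beside 2103 at 24 h and 2400 at 48 h, and the spike-in slopes of these arrays were 0.82 and 0.85, beside 0.91 and 0.92. The scanner software marked the 72 h and 96 h arrays for evaluation. Between 24351 and 26902 probes of an array were well above background in Cy5, with 24771 at 72 h. The part of these differences in the peak was not tested. Across 8 bands of rows on the array, member probes that peaked were 2.99% to 4.36% of the kept probes, and across 5 bands of columns 3.27% to 4.09%, beside 3.59% in all.

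The probes of a model were compared, although some of them overlap in sequence and the rule used their median. Of the 295 models, 59 had 1 kept probe, 112 had 2 and 124 had 3. Every kept probe had a margin of at least 1 in 171 of the 236 models with 2 or 3 kept probes, and 8 of the 236 had a probe with a margin below 0. By slot, 91.1% of 259 slot 1 probes, 94.1% of 221 slot 2 probes and 80% of 175 slot 3 probes met the rule. The study states that the third probe of a transcript was based on an older array and that data from such probes were left out there, but the probe names do not show which slot holds them. With slots 1 and 2 alone, which may still hold such probes, 282 models peaked, 269 of them among the 295.

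Flagellar genes were the best represented group among the models that carry a gene symbol. Of the 295 models, 27 had a symbol in the study's tables and 268 had none. Flagellar were 18 of these 27, beside 36 of the 468 measured models with a symbol. Of the 36 flagellar models measured, these 18 (50%) met the rule, beside 3.55% of all models. Most of the tables list genes whose expression differed under nitrogen or sulfur starvation, in part from these same samples. A further table, of probe annotation and held in part, gave 3 of the 36 flagellar models, 1 of them a member. The share is thus not independent evidence of how flagellar genes behave, and no test was made. Over the 36 flagellar models the median margin was 1.08, beside -0.18 over all models, and 29 of the 36 lay above both neighbours at 72 h, beside 30% of all models.

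The 36 flagellar models had medians of -1.62 at 24 h, -1.61 at 48 h, -0.15 at 72 h and -1.64 at 96 h. At least 2-fold lower than at 0 h were 27 of them at 24 h, 27 at 48 h, 10 at 72 h and 25 at 96 h, and at least 2-fold higher were 5 at 72 h and 0 at the other times. The 18 members among them had medians of -1.61, -2.14, 0.13 and -1.77. The other 18 had medians of -1.41, -1.29, -0.68 and -1.30. The rule separated these groups by their values from 48 h to 96 h, so the distance between them at 72 h is no result.

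**Figure D4:**
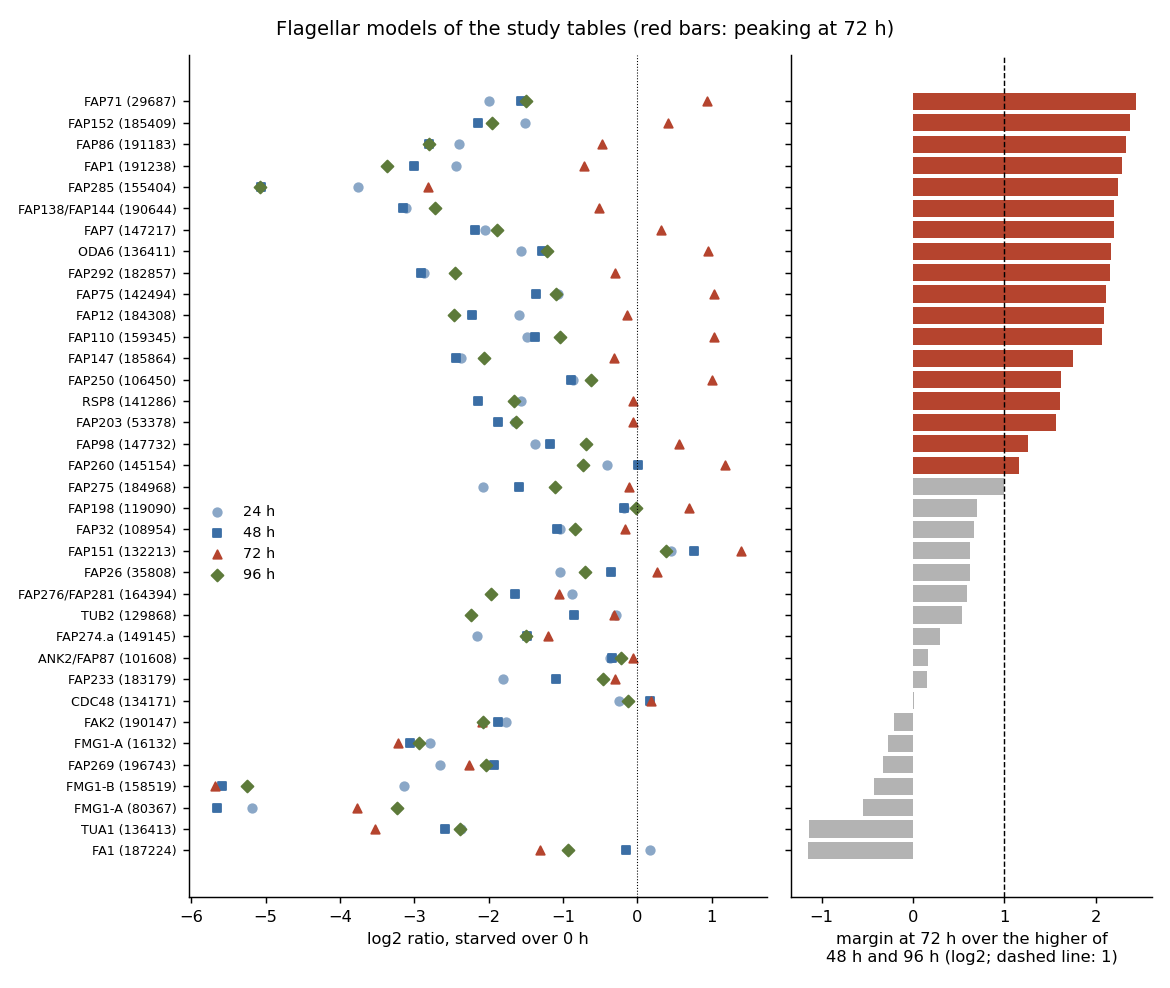
The 36 measured flagellar models, 1 a row, with the log2 ratio of starved over 0 h at each of the 4 times (left panel) and the margin of the 72 h value over the higher of 48 h and 96 h (right panel). Red bars are the 18 models peaking at 72 h, whose red triangles (72 h) stand apart to the right of their other points, and grey bars the 18 that did not.

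Axonemal motor and spoke genes were among the members. ODA6, an intermediate chain of the outer dynein arm (model 136411), had values of -1.57 at 24 h, -1.28 at 48 h, 0.96 at 72 h and -1.21 at 96 h. All of its 3 probes peaked, although the slot 1 probe lay much lower throughout, at -3.99, -4.13, -2.55 and -4.10. RSP8, a radial spoke protein (model 141286, 1 kept probe, in slot 3), had values of -1.57, -2.14, -0.05 and -1.66. Both genes were thus more than 2-fold lower on 3 arrays and within 2-fold of 0 h at 72 h.

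Among the FAPs, FAP71 (model 29687) had the largest margin, 2.44, with values of -1.99, -1.56, 0.94 and -1.50. FAP86 (model 191183) had values of -2.40, -2.80, -0.47 and -2.80, and its 3 probes, which shared runs of at most 6 bases, had margins of 2.15, 2.15 and 2.37. FAP1 (model 191238) was lower still on the flanks, with -2.44, -3.01, -0.72 and -3.37. These 3 differed in where the peak ended, from close to 2-fold above 0 h in FAP71 to somewhat below it in FAP1.

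FAP152 (model 185409, 1 kept probe) had values of -1.52, -2.14, 0.42 and -1.95. FAP7 (model 147217) had values of -2.05, -2.18, 0.32 and -1.88. FAP292 (model 182857) had values of -2.87, -2.90, -0.29 and -2.45. All 3 lay within 2-fold of 0 h at 72 h, as did the model that the tables name both FAP138 and FAP144 (model 190644), with -3.11, -3.15, -0.52 and -2.73.

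FAP12 (model 184308) had values of -1.59, -2.22, -0.13 and -2.47, but both of its kept probes were saturated on at least 1 array. FAP147 (model 185864) had values of -2.36, -2.43, -0.31 and -2.06, the same as those of its slot 3 probe. Slots 1 and 3 had margins of 1.76 and 1.75 and slot 2 had a margin of 0.06. FAP203 (model 53378) had values of -1.64, -1.88, -0.06 and -1.63. FAP98 (model 147732, 1 kept probe, in slot 3) had -1.38, -1.18, 0.56 and -0.69.

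In 4 flagellar members the signal at 72 h was at least 2-fold above 0 h. FAP75 (model 142494) had values of -1.06, -1.37, 1.03 and -1.09, and its slot 3 probe did not follow, with 0.41, 0.30, 0.67 and 0.98. FAP110 (model 159345) had values of -1.49, -1.38, 1.03 and -1.04. FAP250 had values of -0.86, -0.89, 1.00 and -0.62, from the probe printed above. FAP260, annotated as a flagellar membrane protein (model 145154), was near the 0 h level at 48 h, with -0.41, 0.01, 1.18 and -0.73. FAP285 (model 155404) was the 1 flagellar member still lowered at 72 h, with -3.76, -5.06, -2.81 and -5.07.

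The tubulins and the main coat protein of the flagellum were not among the members. TUB2, a beta-tubulin (model 129868), had a margin of 0.54. TUA1, an alpha-tubulin (model 136413), and FA1, a gene known for the shedding of flagella (model 187224), had their lowest values at 72 h, with margins of -1.14 and -1.15. FMG1-B, the major surface glycoprotein of the flagellum (model 158519), had values of -3.14, -5.58, -5.67 and -5.25 and stayed low on all arrays. FAP275 (model 184968) missed the rule by the least in this group, at a margin of 0.996.

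Both hydrogenase genes that carry a symbol were members, in different classes. HYDA1 (model 183963) had values of -2.47 at 24 h, -3.06 at 48 h, -1.54 at 72 h and -2.96 at 96 h, and so was lowered on all 4 arrays and less so at 72 h. HYDA2 (model 24189) had values of -0.89, -0.71, 1.21 and -0.37 and was more than 2-fold higher at 72 h than at 0 h. Both probes of each model peaked. ACK1, an acetate kinase that makes ATP from acetyl phosphate in fermentation (model 129982), had values of -0.66, -0.73, 0.81 and -0.36, but 1 of its 2 kept probes missed the margin of 1, at 0.96, and with no filter on dim probes its margin was 0.19.

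**Figure D5:**
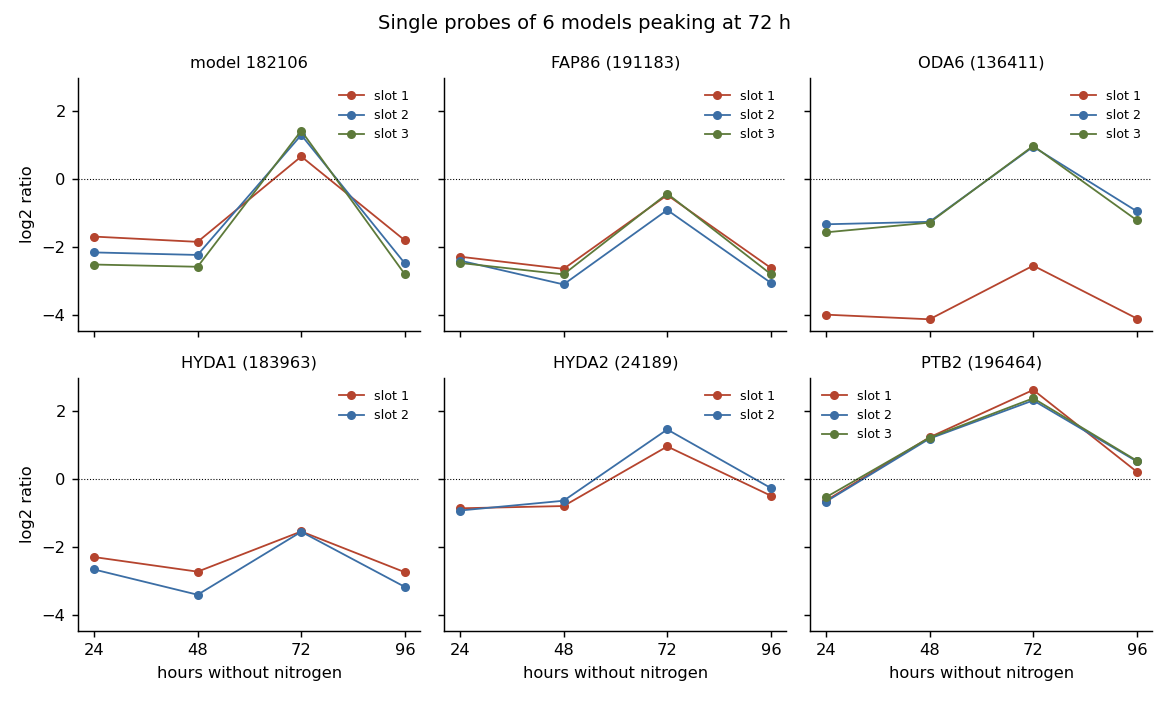
Log2 ratio of starved over 0 h (y axis) by hours without nitrogen (x axis) for each kept probe of 6 peaking models, coloured by slot. In all 6 the 72 h point is the highest of each line, at 2.38 for the PTB2 model and -1.54 for the HYDA1 model.

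Among the raised members with a symbol were the transporters NAR1.3 and PTB2. NAR1.3, of the formate and nitrite transporter family (model 194337), had values of -0.23, -0.53, 1.14 and -0.49. It was the 1 member (11.1%, beside 3.55% of all models) among 9 measured genes listed for nitrogen uptake and assimilation. At least 2-fold higher were 8 of them at 24 h, 8 at 48 h, 9 at 72 h and 8 at 96 h. The shares over all models were 7.39%, 8.39%, 8.19% and 10.2%. The list was drawn from the study's tables of genes whose expression differed. GLN1 and GLN2 were measured but are not on it, so these counts do not describe nitrogen genes as a whole. PTB2, a sodium and phosphate symporter (model 196464), had values of -0.63, 1.22, 2.38 and 0.52 and all 3 probes peaked. It was the 1 member among 6 measured phosphate genes (16.7%, beside the same 3.55%). Nothing is read from single members of lists this short.

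Of 11 measured chaperone genes, 2 (18.2%) were members, beside 3.55% of all models, and nothing is read from so short a list. CPN4/CCT4, a subunit of the cytosolic chaperonin that folds tubulin and actin (model 107474, 1 kept probe), had values of -0.69, -0.22, 1.40 and 0.39. CPN10, a co-chaperonin (model 55098), had values of -2.97, -3.26, -1.60 and -2.67. The slot 1 and slot 2 probes of CPN10 shared 45 bases, so they were not separate measurements. Its slot 3 probe shared no such run and was lowest at 72 h, with -0.23, -0.89, -1.46 and -1.17, a margin of -0.57. With normexp and loess, which changes background correction and normalization together, the margin of CPN10 turned to -0.04. PAO2, a pheophorbide a oxygenase of chlorophyll breakdown (model 188612), had values of -1.73, -2.04, 0.34 and -2.05.

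None of 73 histone models peaked, which at 3.55% over all models says little. At least 2-fold lower than at 0 h were 72 of them at 24 h, 69 at 48 h, 65 at 72 h and 66 at 96 h. The shares of all models at least 2-fold lower were 13.2%, 12.3%, 12.8% and 14.3%. Several histone models had nearly the same values, such as HTA9, HTA10 and HTA15 with -2.89, -2.92 and -2.89 at 72 h. The 73 models may thus not be separate measurements, and whether their probes bound each other's transcripts was not tested. None of 25 light-harvesting and photosystem models peaked either, which at 3.55% over all models says little. At least 2-fold lower were 19, 19, 21 and 21 of these 25. The lists of low CO2 genes (15 measured), ribosomal proteins (5), sulfur uptake (6), tetrapyrrole synthesis (3) and lipid synthesis (2) had no members, and at a share of 3.55% over all models lists this short say nothing by that. The gene lists were read from symbols and descriptions in the same tables of the study. Most of these tables hold genes whose expression differed, so the counts do not describe whole gene families.

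Among the raised members with at least 2 kept probes, the largest margin was that of model 182106, which had no locus match. Its values were -2.16 at 24 h, -2.23 at 48 h, 1.30 at 72 h and -2.48 at 96 h. Its processed Cy5 intensity was 148, 103, 1529 and 122, while Cy3 was 649, 484, 620 and 640, so that the starved signal at 72 h stood out and the 0 h signal did not. The probes of slots 1, 2 and 3 had margins of 2.47, 3.53 and 4.01.

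The other raised members named by margin had 72 h values between 1.03 and 1.83. Model 182072 had values of -1.16, -0.91, 1.61 and -0.74, and model 190974 had -0.63, 0.01, 1.83 and -0.71. Model 141689 had -1.53, -1.66, 1.04 and -1.30. Of all 51 raised members, 3 were at least 2-fold higher at 48 h or 96 h as well. These were PTB2, model 82793 with values of 1.32, 2.41, 3.61 and 2.53, and model 176918 with 2.15, 1.12, 2.14 and 0.72. Models 82793 and 176918 were named after their values were seen.

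Among the members near the 0 h level, model 24358 had the largest margin, 3.08, with values of -2.37, -2.20, 0.87 and -2.41. Its processed Cy5 intensity was 737, 716, 6619 and 734, and its Cy3 intensity 3797, 3293, 3594 and 3604. Model 146275 had values of -1.94, -2.40, 0.32 and -2.45. Model 190581 was the lowest at 96 h in this class, with -2.55, -2.45, 0.04 and -4.09.

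All 6 lowered members had at least 2 kept probes. Model 186495 was the most extreme, with -5.78, -5.94, -2.87 and -6.17, and each of its 3 probes peaked. VSP4, a hydroxyproline-rich glycoprotein of the kind found in cell walls (model 195824), had -3.04, -4.04, -2.69 and -5.86. Model 184434 had -3.15, -3.24, -1.74 and -2.81. With FAP285, HYDA1 and CPN10 these make up the class, and none came closer to 0 h than -1.54. The peak of CPN10 rests on 2 overlapping probes, as given above.

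A locus of the RefSeq annotation (assembly v5.5) was matched to 264 of the 295 models through the older model number. In that annotation 6 pairs of members were next to each other. No share of such pairs over all models is set beside this count, so nothing is read from it. In the pair of models 184900 and 131333, the values were -1.12, -1.72, 0.15 and -1.45 for the first and -1.28, -1.38, 0.96 and -1.49 for the second. CPN10 and its neighbour, model 77703, had 72 h values of -1.60 and 0.19. Models 186884 and 141862, both raised, stood at 1.22 and 1.02 at 72 h.

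The split between raised and other members moved when background correction and normalization were changed together. With normexp and loess in place of the processed signals of the scanner software, 219 models peaked, 215 of them among the 295, and 22 instead of 51 were at least 2-fold above 0 h at 72 h. Among the named members whose margin then lay under 1 were FAP250 (0.76), FAP152 (0.75), FAP260 (0.88), FAP98 (0.44), PTB2 (0.85) and CPN4/CCT4 (0.61), while that of model 182106 was 1.96. The deposited log10 ratios gave the same 295 models.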

How the data were processed

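The 4 arrays, each with 2 dyes, were 1 for each starved time point. The deposited scanner output came from Agilent Feature Extraction 10.7.3.1, as given in the submitters' processing notes. Per the file headers, the processed intensity of each channel was background-subtracted with spatial detrending and dye-normalized (linear and lowess), and dim spots carried surrogate values. The deposited log10 ratio was processed Cy5 over Cy3, with dim spots set to 0, and the series table of the authors repeated these log10 ratios. The deposited flags were used as given.

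Of 43801 non-control probes per array, 43671 carried a model and slot number, for 14557 models, and 16264 whose deposited flags put Cy5 and Cy3 well above background on every array were kept. A model's value was the median log2 ratio of processed intensities over its kept probes. 1 model number was left out by the rule and was not among those measured. No kept member probe carried an outlier flag. Values were compared as counts and medians, with no test, since each time point was 1 array of pooled RNA. Arrays share the 0 h RNA, and a fixed dye effect cannot be told apart from a change. Named models were those with a symbol, in a gene list, next to another member, at the edge of the rule, or among the 10 largest margins of each class with at least 2 kept probes. The members and lists were chosen with earlier results of these data known. Symbols came from the study's tables.

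The alternatives were normexp (offset 50) with loess in limma 3.58.1 and R 4.3.3, median centring, equal spread between arrays, the deposited log10 table, other background filters, saturated probes left out, the mean of probes, slots 1 and 2, more probes, and margins of 0.8 and 1.5. Counts were made with Python 3.11.15, pandas 2.3.3 and numpy 2.4.6. The code for the rule was run on simulated peaks that were large beside their noise, which does not bear on the error of these arrays.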

Additional observations from a re-analysis of the deposited data

How the results depend on the processing

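Each time point was 1 array, so the number of arrays limits the precision and leaving out a replicate was not possible. No paired analysis was possible because the labels give no shared replicate numbers and no test was made. The count of 295 models was between 219 and 376 except where the rule or the probe demand was tightened. With every kept probe of at least 2 meeting the rule there were 171 models, 31 of them raised and 135 near the 0 h level. A margin of 1.5 gave 160 models, of which 21 were raised, 137 near the 0 h level and 2 lowered, and a margin of 0.8 gave 12 lowered instead of 6. The raised models numbered 22 with normexp and loess, 100 with the background filter in either channel and 101 with no filter, instead of 51. Dips numbered 74 at 72 h and 3 at 48 h with normexp and loess, instead of 121 and 11, and 7 at 48 h with at least 2 kept probes. The cause of these shifts was not tested. The margin of CPN10 (model 55098) turned to -0.0442 with normexp and loess. Of 60 named models, 50 kept a margin of at least 1 with normexp and loess, 55 with no filter and 60 with the deposited ratios.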

Other observations

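Among the 121 models that dipped at 72 h, LHCA1, a light-harvesting protein of photosystem I (model 206001), had values of 2.28 at 24 h, 2.85 at 48 h, 0.72 at 72 h and 6.04 at 96 h. Another model of the same symbol, 184471, was lowered throughout, with values of -1.81, -2.58, -1.50 and -1.78, and model 206001 had no locus match. The study lists model 206001 as lowered on average under nitrogen starvation, unlike the values here, while its description names LHCA1 among raised genes. This difference was not traced. VPS33, of vesicle sorting (model 195470), had values of 1.09, 1.38, -0.46 and 1.02. Models 206001 and 195470 lay above the 0 h level on 3 arrays or more and came closest to it, or below it, on the 72 h array. They were chosen after their values were seen.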
